A study of Mus musculus with 6 samples.

Results

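The solute carriers expressed in stimulated mouse macrophages were compared between control cells and cells with reduced S-adenosylhomocysteine hydrolase. Members were the protein-coding genes whose symbol starts with Slc and a digit and whose FPKM (a read count scaled to gene length and library size) reached 2 in 3 or more of the 6 libraries, with a fixed set of carriers left out by name. Of 371 protein-coding Slc genes in the table of 54532 rows, 340 remained after those exclusions and 127 reached the level. Of the others, 136 had at least 1 read and 77 had none in any library. The FPKM level chose the members, so their being expressed is not a finding. Of the 127 members, 124 are carriers. The other 3 share only the name: Slc9a3r1 encodes a scaffold protein, Slc4a1ap an adaptor, and Slc7a6os lies opposite Slc7a6.

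All 6 libraries came from peritoneal macrophages, elicited with thioglycollate, collected 4 days later and kept after 6 h of adherence in RPMI-1640 with serum. Every library, controls included, came from cells given IFN-γ at 2 ng/mL and LPS at 10 ng/mL for 8 h, so a difference between groups is a difference within stimulated cells. The 3 control libraries are called shControl in the titles and WT in the genotype field. The other 3 are called SAHH-KO in the titles and a knockdown in the genotype field, and SAHH-KO is used here as a name only. The labels give no vector, no promoter and no animal numbers, and nothing tells whether a replicate is its own animal or culture. The p-values cover the spread between these libraries only, which may be technical.

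Solute carriers are membrane proteins that move nutrients, ions, metals and metabolites along or against gradients, often by exchange or by coupling to sodium or protons. They are grouped by sequence into numbered families, and most macrophage nutrient traffic at the plasma membrane, lysosome, Golgi and inner mitochondrial membrane runs through them. Macrophages stimulated with interferon and LPS are known for high arginine, citrate, itaconate and iron traffic, and several carriers of these substances are studied for their part in inflammation. S-adenosylhomocysteine hydrolase, encoded by Ahcy, splits S-adenosylhomocysteine, the by-product of methylation reactions, into adenosine and homocysteine.

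Promoter sequences are shown for 4 members that stood among the larger differences or are known targets of a named element, since their transcription starts carry a match to it. RefSeq (GRCm38.p6) had windows from 250 bases before to 50 bases after a start for 98 of the 127 members. Both strands were searched, and the genes and elements were chosen after the values were seen. A match describes the letters in the window only. Slc25a22, the mitochondrial glutamate carrier, has the letters GAAANNGAAA of the interferon response element in 1 of its 3 windows, at chr7:141435326-141435625 on the minus strand. Slc37a1, a phosphate-linked sugar phosphate exchanger, has the same element in its only window, at chr17:31295974-31296273 on the plus strand. Slc7a7, a light chain for cationic amino acid exchange, has the letters TGATGNAA of the amino acid response element in 2 of its 5 windows, 1 of them at chr14:54417653-54417952 on the minus strand. Slc30a1, the plasma membrane zinc exporter, has 2 matches to the metal response element, TGCACNC or TGCGCNC, at chr1:191906531-191906830 on the plus strand. The matches are in capitals, and a capital run may be the reverse complement of the letters given.
Slc25a22: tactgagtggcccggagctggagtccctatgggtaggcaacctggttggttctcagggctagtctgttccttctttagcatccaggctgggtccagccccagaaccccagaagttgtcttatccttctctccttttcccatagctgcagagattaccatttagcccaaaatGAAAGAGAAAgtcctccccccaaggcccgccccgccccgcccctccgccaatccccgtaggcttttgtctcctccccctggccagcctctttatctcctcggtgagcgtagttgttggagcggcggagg
Slc37a1: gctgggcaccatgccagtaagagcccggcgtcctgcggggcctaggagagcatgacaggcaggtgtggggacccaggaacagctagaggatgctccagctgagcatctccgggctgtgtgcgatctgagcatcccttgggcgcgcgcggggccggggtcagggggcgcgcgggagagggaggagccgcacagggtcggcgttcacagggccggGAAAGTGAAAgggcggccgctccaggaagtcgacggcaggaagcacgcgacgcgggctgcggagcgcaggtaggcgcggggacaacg
Slc7a7: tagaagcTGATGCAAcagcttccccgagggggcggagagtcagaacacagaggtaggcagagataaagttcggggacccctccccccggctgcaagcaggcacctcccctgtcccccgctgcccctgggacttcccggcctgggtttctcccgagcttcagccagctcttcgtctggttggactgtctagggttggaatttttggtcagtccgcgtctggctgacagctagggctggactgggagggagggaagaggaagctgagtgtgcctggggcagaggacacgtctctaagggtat
Slc30a1: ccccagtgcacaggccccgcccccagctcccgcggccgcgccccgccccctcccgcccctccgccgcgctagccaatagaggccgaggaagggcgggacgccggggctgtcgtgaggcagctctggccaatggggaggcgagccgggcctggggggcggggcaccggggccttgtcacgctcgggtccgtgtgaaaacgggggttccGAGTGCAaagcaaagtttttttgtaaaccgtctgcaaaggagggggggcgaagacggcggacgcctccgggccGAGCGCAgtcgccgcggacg

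The interferon element was held by 3.44% of all 32851 windows and by 1.49% of the members' 134 windows, those of Slc25a22 and Slc37a1. The amino acid element was held by 3.97% of all windows and by 2.24% of the members' windows, those of Slc7a7 and Slc50a1. Neither share was above that of all windows. The metal element was held by 25.7% of all windows and by 36.6% of the members' windows, and 7.11% of all windows held at least 2 matches as Slc30a1 did. The E-box CACGTG was in 7.15% of all windows and 14.2% of the members' windows. The interferon-γ activated site TTCNNNGAA was in 8.30% of all windows and 3.73% of the members' windows. The Slc25a22 window with the match is not the one nearest to the gene start in the deposited table.

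Ahcy, the gene named in the labels, checked the groups first. It stood at 25.8, 22.6 and 24.4 FPKM in the control libraries and at 5.51, 5.50 and 6.23 in the SAHH-KO libraries, 4.22-fold lower (log2 fold change -1.90, SE 0.0873, adjusted p = 1.44e-06). Gm4737, a near-identical copy that can share its reads, went from 66.2 ± 2.51 to 18 ± 2.50 FPKM (mean ± SD, n = 3, as in all such values here). Between 15540442 and 17748745 reads per library were assigned to genes, and 3 reads in a gene of 1 kb correspond to 0.168 to 0.197 FPKM, so members at FPKM 2 stood well above the counting floor. Macrophage markers were present, with 7 of 8 at 1 FPKM or more and Mertk near 0, and their summed level ranged from 6534 to 6723 FPKM in control and from 7127 to 8631 in SAHH-KO libraries. Most of that sum is Lyz2, at 5653 ± 144 and 6616 ± 708 FPKM (adjusted p = 0.067), and the list moved apart. Fcgr1, an interferon-inducible Fc receptor, rose 4.79-fold (log2 fold change 1.88, adjusted p = 1.9e-05), Adgre1, or F4/80, 2.09-fold (1.04, adjusted p = 0.0001), Spi1 1.54-fold (0.63, adjusted p = 0.0013) and Itgam 1.43-fold (0.49, adjusted p = 0.0015). Csf1r was at 107 ± 8.07 and 91 ± 6.62 FPKM (-0.23, adjusted p = 0.0568; lower with TPM, adjusted p = 0.0059), and Cd68 did not pass (adjusted p = 0.677). The resident peritoneal macrophage markers Gata6 and Timd4 had no reads. Of 48 markers in 10 lists for other cell types, 21 had no reads and 2 reached 1 FPKM: S100a8, a neutrophil gene, at 4.63 in control and 0.189 in SAHH-KO, and the T cell gene Lck at 2.38 and 4.13. The defining markers Ly6g and S100a9 were at 0 and Cd3e near 0. The summed neutrophil list was 4.76 to 5.66 FPKM in control and 0.503 to 0.820 in SAHH-KO libraries, and the T cell list 2.29 to 2.54 and 3.10 to 4.85. The part of these levels in the differences below was not tested. In bulk libraries, fewer cells of a type and less RNA per cell cannot be told apart.

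Carriers changed in both directions, and the shares that changed lay near those of other genes. Among the 123 members that reached FPKM 2 in both groups, 30 were higher in SAHH-KO and 41 were lower at an adjusted p under 0.05, and 52 did not pass. That is 57.7% called, 24.4% higher and 33.3% lower. Among all 8593 genes at the same level, 52.7% were called, 25.7% higher and 27% lower, and among all 10362 genes tested 53.3% were called, 26.4% higher and 26.8% lower. The groups of 3 did not overlap for 80 members, 65.0%, beside 61.7% of all genes at that level. The median log2 fold change was -0.04 for members and -0.01 for those genes. Shares this near the background are no result about the carriers as a set, and what follows is which of them changed. Counts for single classes below rest on few genes and are to be read beside the same shares. Of the 51 tested partner genes in 6 lists, 10 were higher and 16 lower, beside 26.4% and 26.8% of all genes tested. Of the called members, 7 were at least 2-fold higher and 5 at least 2-fold lower.

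The library scaling bears on the small changes. The deposited FPKM used library sizes 1.05 to 1.07 times the assigned reads in control and 0.937 to 0.960 times in SAHH-KO libraries. Rescaling to TPM (each library's values made to sum to the same total) moved the median of all genes tested by -0.15 on the log2 scale, and scaling to assigned reads by -0.13. With TPM 20 members were higher and 53 lower, beside 18% and 38.7% of the genes at that level. With assigned reads 21 members were higher and 54 lower. Both rescalings moved fold changes downward, so a lower call could hardly fail them, and its holding is weak support. All 41 lower calls and 20 of the 30 higher calls held under the 3 scalings. Of the 71 calls, 49 also held in each of the 6 fits that left out 1 library: 20 higher and 29 lower. Where the call of a named member failed one of these it is said beside the gene, with the adjusted p without the library whose removal raised it most. For partner genes the fits without 1 library are given as counts only. These were 9 to 10 higher and 13 to 18 lower, beside 10 and 16 with all libraries. Of the 71 calls, 7 to 18 were lost when a single library was left out, the most without SAHH-KO replicate 3.

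**Figure D1:**
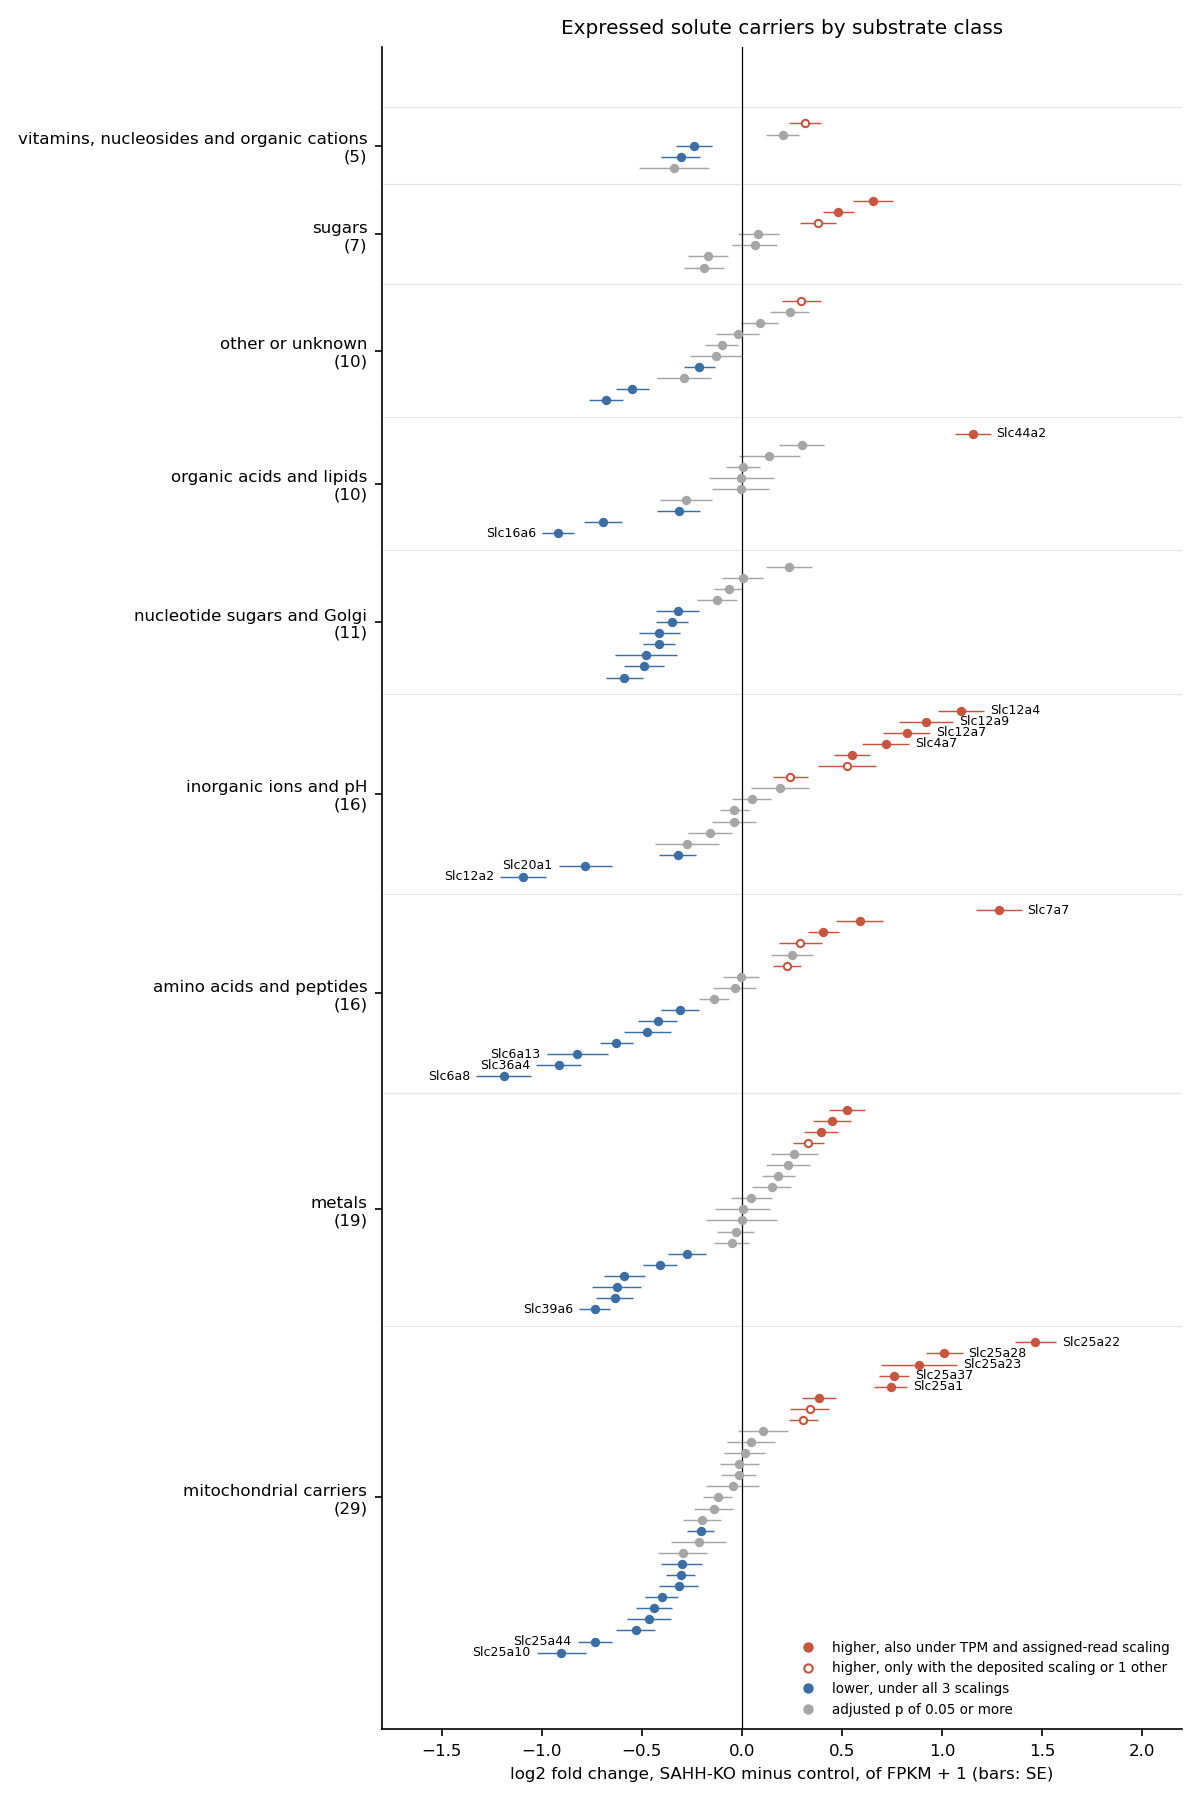
Log2 fold change of FPKM + 1, SAHH-KO minus control, for the 123 tested members by substrate class (points, with SE bars; members of each class sorted by value, class size in parentheses). Red marks higher, blue lower and grey not passing; open red points lost the call under at least 1 other scaling. The nucleotide sugar class has 7 blue points and no red one, and the other classes hold red points.

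Levels spanned more than 2 orders of magnitude. The median member stood at 8.86 FPKM over the 6 libraries, 71 members were under 10 and 10 were at 50 or more. Slc25a5, the main ADP/ATP exchanger of the inner mitochondrial membrane in these cells, held 17.3% of the summed member FPKM in control and 14% in SAHH-KO libraries. After it came Slc39a1, a zinc importer, and Slc15a3, a lysosomal peptide and histidine transporter. The summed FPKM of all members was 2570 ± 105 in control and 2570 ± 14.7 in SAHH-KO, with control replicate 1 highest at 2691. Some members lie over other genes or share sequence with them, which makes their reads uncertain: by exon bases Slc39a7 shares 80.7%, Slc24a5 39.5%, Slc33a1 32% and Slc20a1 13.1%, and by 50-base words Slc28a2 shares 35.4%, Slc38a6 22.8%, Slc5a6 13.6% and Slc35a4 12%.

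Mitochondrial carriers formed the largest class, with 30 members. Of 29 tested, 8 were higher and 10 lower, beside 25.7% and 27% of all genes at the members' level, and 11 did not pass. Under the 3 scalings, 6 higher and 10 lower calls held. The glutamate carrier, both mitoferrins and the citrate carrier rose, while the ADP/ATP exchangers and the dicarboxylate carrier fell. The class sum was 982 ± 18.1 FPKM in control and 918 ± 16.2 in SAHH-KO.

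Slc25a22, which brings glutamate into the matrix with a proton, had the largest rise of any tested member. It stood at 8.08, 6.18 and 6.72 FPKM in control and at 20.4, 22.1 and 20.6 in SAHH-KO libraries, 3.0-fold higher (log2 fold change 1.47, SE 0.102, adjusted p = 1.19e-05). Every SAHH-KO library was more than double any control library. The aspartate/glutamate exchangers, which carry reducing equivalents in the malate-aspartate shuttle, went apart. Slc25a13, or citrin, fell from 18.5 ± 1.71 to 13.4 ± 0.586 FPKM (log2 fold change -0.44, adjusted p = 0.00359). Slc25a12, or aralar, stood at 11.5, 11.2 and 11.5 FPKM in control and at 14.5, 13.9 and 14.6 in SAHH-KO, higher with the deposited scaling (0.31, adjusted p = 0.00765) but not with TPM (adjusted p = 0.11). The ratio of Slc25a13 to Slc25a12 within a library, which no scaling can move, was 1.48 to 1.82 in control and 0.869 to 0.998 in SAHH-KO libraries.

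The iron importers of mitochondria, the mitoferrins, both rose. Slc25a28, or mitoferrin 2, stood at 13.5, 11.6 and 12 FPKM in control and at 27.8, 24.1 and 26.1 in SAHH-KO libraries, 2.10-fold higher (log2 fold change 1.01, SE 0.0907, adjusted p = 4.55e-05). Slc25a37, or mitoferrin 1, stood at 25.4, 26.1 and 24.2 and at 42.8, 42.0 and 45.3 FPKM, 1.72-fold higher (0.76, SE 0.0744, adjusted p = 7.43e-05). Neither overlapped between groups. Slc25a39, which brings glutathione into mitochondria, went from 65.9 ± 6.33 to 83.4 ± 6.16 FPKM, a call lost with TPM (adjusted p = 0.15) and without SAHH-KO replicate 1 (adjusted p = 0.0652).

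Carriers of citric acid cycle acids also went both ways. Slc25a1, the citrate carrier that exports citrate for acetyl-CoA in the cytosol, stood at 26.4, 23.9 and 24.1 FPKM in control and at 44.2, 43.5 and 38.8 in SAHH-KO libraries, 1.70-fold higher (log2 fold change 0.74, SE 0.0843, adjusted p = 0.000167). Slc25a10, the dicarboxylate carrier that exchanges malate or succinate for phosphate, stood at 11.9, 8.48 and 10.6 and at 5.32, 5.23 and 4.53 FPKM, 2.06-fold lower (-0.90, SE 0.124, adjusted p = 0.000468). Slc25a11, the oxoglutarate/malate carrier, was at 47.2 ± 1.54 and 43.3 ± 0.985 FPKM and did not pass. So the exporter of citrate stood higher and the carrier of dicarboxylates lower in every SAHH-KO library than in any control.

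The energy carriers were lower by small amounts. Slc25a5 stood at 453, 433 and 451 FPKM in control and at 343, 383 and 356 in SAHH-KO libraries (log2 fold change -0.31, SE 0.0731, adjusted p = 0.00796), and 33.8% of its 50-base words occur in other genes, most in a pseudogene that was near 0. Slc25a4, the other ADP/ATP exchanger, went from 69.7 ± 5.02 to 52.5 ± 1.69 FPKM (-0.40, adjusted p = 0.00337). Slc25a3, which brings in phosphate for ATP synthesis, went from 97.0 ± 1.85 to 84.0 ± 2.18 FPKM (-0.21, adjusted p = 0.0327); without SAHH-KO replicate 3 its adjusted p was 0.112. Slc25a44, which brings branched-chain amino acids into mitochondria, fell more, from 18.9, 17.6 and 18.4 to 9.78, 10.5 and 11.6 FPKM (-0.74, SE 0.0858, adjusted p = 0.00019). Slc25a32, linked to folate and FAD import, fell from 5.12 ± 0.498 to 3.23 ± 0.255 FPKM (-0.53, adjusted p = 0.00209). Slc25a45 (-0.46, adjusted p = 0.00779) fell too. Slc25a51, the NAD+ carrier (-0.32), and Slc25a24, a calcium-regulated ATP-Mg/phosphate carrier (-0.30), passed with all libraries; without SAHH-KO replicate 2 the adjusted p was 0.0924 for Slc25a51 and 0.0966 for Slc25a24. Slc25a23, another ATP-Mg/phosphate carrier, stood at 2.38, 1.53 and 1.86 and at 6.04, 3.24 and 4.17 FPKM (0.89, adjusted p = 0.0045); only 1 control library reached FPKM 2. Slc25a33, a pyrimidine nucleotide carrier, rose from 11.8 ± 0.688 to 15.7 ± 1.01 FPKM (0.39, adjusted p = 0.00535).

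Of 15 genes for import of carriers and their partners in the mitochondrion, 1 was higher and 6 were lower, beside 26.4% and 26.8% of all genes tested. Timm22, the core of the inner-membrane insertase for carriers, stood at 6.83, 6.65 and 6.71 FPKM in control and at 3.49, 3.92 and 3.80 in SAHH-KO libraries (log2 fold change -0.71, adjusted p = 0.000171). Its small chaperones Timm9 (-0.64) and Timm10 (-0.29), the outer-membrane pores Vdac1 (-0.42) and Vdac2 (-0.50), and Mtch1 (-0.31) were also lower. Ucp2, an uncoupling-protein carrier of the same family by fold, rose from 62.7 ± 5.98 to 99.8 ± 0.209 FPKM (0.67, adjusted p = 0.000307).

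Amino acid and peptide carriers numbered 16. Of these, 5 were higher and 7 lower, beside 25.7% and 27% of all genes at the members' level, and 4 did not pass. Under the 3 scalings, 3 higher and 7 lower calls held. Slc7a7 and Slc7a6 are alternative light chains of the y+L exchanger, which swaps cationic amino acids such as arginine for neutral ones and needs the heavy chain Slc3a2. Slc7a7 stood at 5.60, 4.57 and 4.10 FPKM in control and at 14, 11.9 and 13.1 in SAHH-KO libraries, 2.73-fold higher (log2 fold change 1.28, SE 0.114, adjusted p = 4.32e-05). Slc7a6 stood at 16, 17.3 and 15.5 and at 10.6, 10.3 and 9.64 FPKM (-0.63, SE 0.081, adjusted p = 0.000327). The order of the pair turned: Slc7a6 was 2.85 to 3.79 times Slc7a7 in control and 0.738 to 0.866 times in SAHH-KO libraries.

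Sodium- and chloride-coupled carriers of family 6 were lower or did not pass. Slc6a8, the creatine transporter, stood at 22.8, 15.7 and 18.2 FPKM in control and at 8.50, 7.02 and 7.41 in SAHH-KO libraries, 2.47-fold lower and the largest fall among tested members on the log2 scale (-1.19, SE 0.135, adjusted p = 0.000169). Slc6a13, which carries GABA and taurine, stood at 12.3, 8.62 and 14.1 and at 6.17, 5.93 and 6.02 FPKM (-0.82, adjusted p = 0.0023). Slc6a6, the taurine transporter, went from 53.1 ± 6.19 to 42.5 ± 1.58 FPKM (-0.31, adjusted p = 0.0251), and without SAHH-KO replicate 2 its adjusted p was 0.0826. The betaine and GABA carrier Slc6a12 was more abundant, at 64.4 ± 3.80 and 58.2 ± 0.169 FPKM, and did not pass with the deposited scaling (adjusted p = 0.142). It was lower with TPM (adjusted p = 0.0117) and with assigned reads (adjusted p = 0.00953).

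Lysosomal and proton-coupled carriers went different ways. Slc15a3, which moves histidine and small peptides out of endolysosomes, stood at 107, 77.9 and 84.5 FPKM in control and at 131, 134 and 139 in SAHH-KO libraries, 1.5-fold higher (log2 fold change 0.59, SE 0.117, adjusted p = 0.00328). It shares 28.1% of its exon bases with the opposite-strand gene Tmem132a, which was at 13 ± 2.67 and 12.1 ± 1.03 FPKM, and the sources do not state whether counting used strand. Its relative Slc15a4, which is needed for endosomal Toll-like receptor signalling, was at 5.98 ± 0.456 and 5.95 ± 0.347 FPKM and did not pass (-0.01, adjusted p = 0.966), so the ratio of Slc15a3 to Slc15a4 was 13.7 to 17 in control and 21.5 to 25.1 in SAHH-KO libraries. Slc36a4, a proline and tryptophan carrier, stood at 14.6, 18 and 14.6 and at 6.93, 8.16 and 8.46 FPKM (-0.92, SE 0.111, adjusted p = 0.000235). Slc36a1, the proton-coupled exporter of small amino acids from lysosomes, fell from 3.70 ± 0.418 to 2.50 ± 0.106 FPKM (-0.42, adjusted p = 0.00648).

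Family 38, which carries glutamine and other neutral amino acids, had smaller changes. Slc38a1, a sodium-coupled glutamine carrier, rose from 22 ± 1.31 to 29.5 ± 0.552 FPKM (log2 fold change 0.41, adjusted p = 0.00247), and Slc38a6 fell from 3.42 ± 0.619 to 2.17 ± 0.149 (-0.47, adjusted p = 0.00928). Slc38a7, a lysosomal glutamine carrier, and the aromatic amino acid carrier Slc16a10 were higher with the deposited scaling only (adjusted p = 0.0467 and 0.0246; with TPM 0.32 and 0.44). Without SAHH-KO replicate 3 the adjusted p of Slc38a7 was 0.168, and without control replicate 3 that of Slc16a10 was 0.093. Of 13 tested genes of lysosomal amino acid sensing, which acts on mTORC1, 5 were higher and 3 lower, beside 26.4% and 26.8% of all genes tested. Counts this small are no result about the list. Sesn2, a leucine sensor and stress-response gene, stood at 13.4, 11.6 and 12.2 FPKM in control and at 42.2, 46.1 and 47.5 in SAHH-KO libraries (1.79, adjusted p = 1.81e-06). Flcn, a regulator of the Rag GTPases, fell (-0.83, adjusted p = 0.000687). Of the Ragulator scaffold subunits, Lamtor2 was higher (0.61), Lamtor3 (-0.55) and Lamtor5 (-0.47) were lower, and Lamtor1 and Lamtor4 did not pass.

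**Figure D2:**
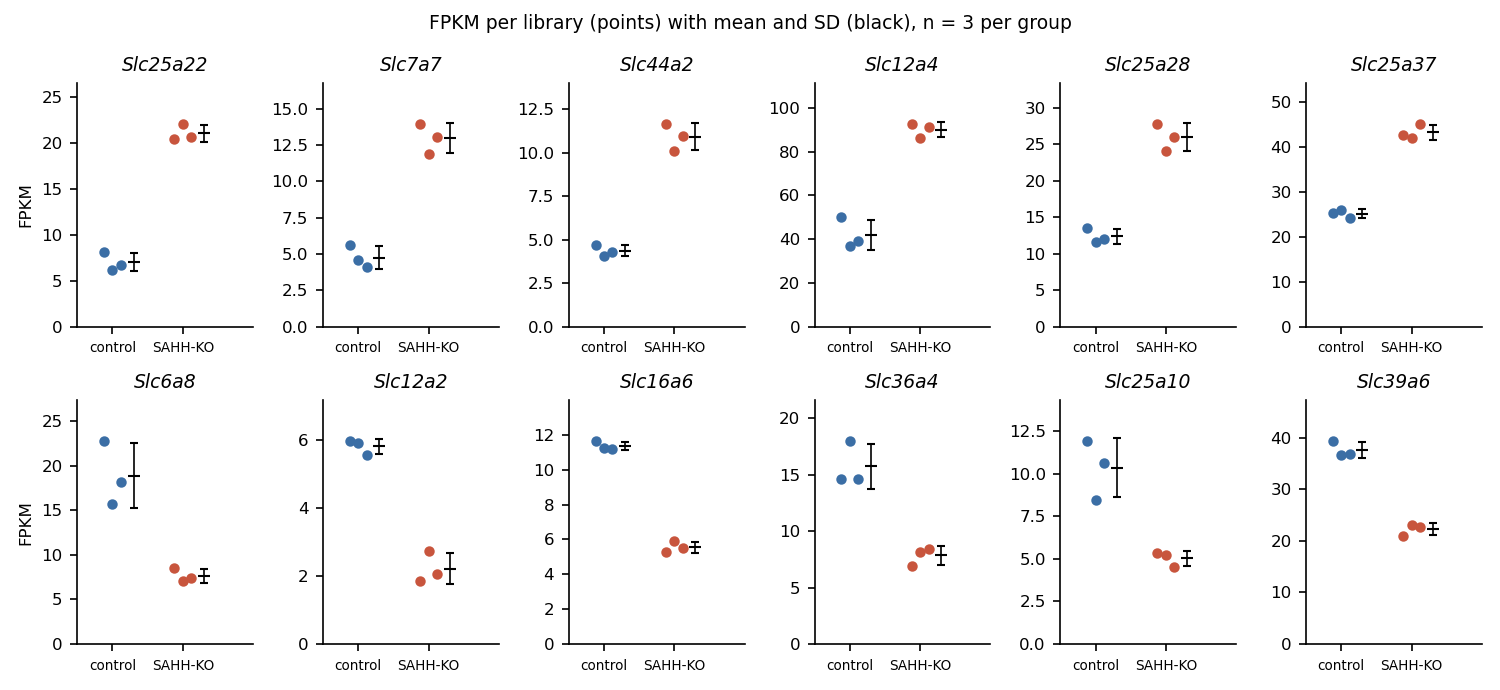
FPKM of 12 members in each library (points; blue control, red SAHH-KO; black mark and bar, mean and SD, n = 3), each panel on its own axis from 0. In the upper row all SAHH-KO points lie above all control points, as for Slc25a22 at 20.4 to 22.1 against 6.18 to 8.08, and in the lower row all lie below.

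Of 16 tested carriers of inorganic ions and protons, 7 were higher, 3 lower and 6 did not pass, beside 25.7% higher and 27% lower among all genes at that level. With TPM or assigned reads 5 were higher and 4 lower, and 5 higher and 3 lower calls held under the 3 scalings. The class sum went from 236 ± 12.1 to 289 ± 4.12 FPKM. The chloride cotransporters of family 12 set cell volume and chloride: Slc12a2, or NKCC1, brings sodium, potassium and chloride in, and the KCC members let potassium and chloride out. Slc12a2 stood at 5.96, 5.91 and 5.55 FPKM in control and at 1.83, 2.72 and 2.06 in SAHH-KO libraries, 2.63-fold lower (log2 fold change -1.10, SE 0.115, adjusted p = 0.000105). Slc12a4, or KCC1, stood at 50, 37.1 and 39 and at 92.8, 86.2 and 91.3 FPKM, 2.15-fold higher (1.09, SE 0.114, adjusted p = 0.000104). Slc12a7, or KCC4, rose from 6.81 ± 1.08 to 12.8 ± 1.18 FPKM (0.82, adjusted p = 0.000557). Slc12a9, a member of the family without an agreed substrate, rose from 4.05 ± 0.953 to 8.46 ± 0.548 FPKM (0.92, adjusted p = 0.000613). The ratio of the inward Slc12a2 to the outward Slc12a4 was 0.119 to 0.159 in control and 0.0198 to 0.0316 in SAHH-KO libraries. Among 5 tested genes of the sodium pump and the kinases of these cotransporters, none was higher and 1 was lower. Among all genes tested the shares were 26.4% and 26.8%. Atp1b3, a pump subunit, fell from 181 ± 14.6 to 117 ± 10.5 FPKM (-0.63, adjusted p = 0.000786). The kinase genes Wnk1 and Oxsr1 did not pass.

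Other ion carriers included rises in pH regulators. Slc4a7, a sodium bicarbonate cotransporter, stood at 20.2, 27.6 and 22.4 FPKM in control and at 42.1, 36.3 and 38.3 in SAHH-KO libraries (log2 fold change 0.72, adjusted p = 0.00129). Slc9a8, a sodium/proton exchanger of Golgi and endosomes, rose from 3.88 ± 0.395 to 6.13 ± 0.157 FPKM (0.55, adjusted p = 0.00117). Slc8b1, the mitochondrial sodium/calcium exchanger (0.53, adjusted p = 0.0155), was higher with the deposited scaling only (with TPM adjusted p = 0.066), and without SAHH-KO replicate 3 its adjusted p was 0.051. Slc20a1, the sodium-coupled phosphate importer PiT1, stood at 59.0, 62.1 and 56.2 and at 27.3, 40.1 and 35.4 FPKM (-0.78, SE 0.132, adjusted p = 0.00137), while its relative Slc20a2 was at 6.65 ± 0.297 and 6.48 ± 1.02 and did not pass. Slc26a2, the sulfate transporter, went from 2.92 ± 0.272 to 2.13 ± 0.0423 FPKM (-0.32, adjusted p = 0.0179), and without SAHH-KO replicate 3 its adjusted p was 0.0646.

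Metal carriers numbered 21. Of 19 tested, 4 were higher and 6 lower, beside 25.7% and 27% of all genes at the members' level, and 9 did not pass. Under the 3 scalings, 3 higher and 6 lower calls held. Family 39 (ZIP) brings zinc and related metals into the cytosol and family 30 (ZnT) takes zinc out of it. Slc30a1 and Slc39a2 reached FPKM 2 in SAHH-KO libraries only, so they had to differ and were not tested. Slc30a1, the zinc exporter whose gene is a known target of the zinc-sensing factor MTF1, stood at 1.23, 1.27 and 1.23 FPKM in control and at 5.01, 2.98 and 3.33 in SAHH-KO libraries. Slc39a2, a zinc importer, stood at 1.28, 0.921 and 1.38 and at 8.21, 5.72 and 7.05 FPKM. That the groups do not overlap for these genes was fixed by the choice of members. Of the 3 zinc partners, 1 was higher and none was lower, beside 26.4% and 26.8% of all genes tested. Mt2, a metallothionein that binds zinc, stood at 21.3, 33.3 and 38.1 FPKM in control and at 96.4, 95.3 and 94.6 in SAHH-KO libraries (log2 fold change 1.64, SE 0.182, adjusted p = 0.00015). Mt1 was at 270 to 311 and 308 to 399 FPKM (0.27, adjusted p = 0.0599), and Mtf1 was level (0.01, adjusted p = 0.907).

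The tested zinc carriers split. Slc39a6, a plasma membrane importer, stood at 39.4, 36.6 and 36.9 FPKM in control and at 20.9, 23.1 and 22.6 in SAHH-KO libraries, 1.70-fold lower (log2 fold change -0.74, SE 0.0775, adjusted p = 0.000109). Its close relative Slc39a10 went from 15.5 ± 1.51 to 12.6 ± 0.910 FPKM (-0.27, adjusted p = 0.0409), and without SAHH-KO replicate 2 its adjusted p was 0.129. Slc30a5, which loads zinc into the secretory pathway, fell from 14.2 ± 1.52 to 9.12 ± 0.776 FPKM (-0.59, adjusted p = 0.00155). Slc39a13 rose from 4.78 ± 0.314 to 7.33 ± 0.617 FPKM (0.52, adjusted p = 0.00163). Slc39a14, which also carries manganese and non-transferrin iron, rose from 14.6 ± 0.242 to 20.4 ± 2.44 FPKM (0.45, adjusted p = 0.00459). Slc39a1, the most abundant zinc importer here, went from 123 ± 8.34 to 155 ± 3.55 FPKM (0.33, adjusted p = 0.00684), a call lost with TPM (0.11), and 21.8% of its 50-base words occur in other genes, chiefly a pseudogene.

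Copper and heme carriers followed. Slc31a1, the high-affinity copper importer CTR1, stood at 32.4, 40.7 and 38 FPKM in control and at 23.2, 23.4 and 23.4 in SAHH-KO libraries (log2 fold change -0.64, SE 0.0946, adjusted p = 0.000697). Slc31a2, its low-affinity relative of endosomes and lysosomes, stood at 76.2, 75.4 and 72.4 and at 109, 92.3 and 95.3 FPKM (0.40, SE 0.0838, adjusted p = 0.00442). The ratio of Slc31a1 to Slc31a2 was 0.425 to 0.540 in control and 0.213 to 0.254 in SAHH-KO libraries. Of 5 tested copper genes, 2 were higher and 1 lower, beside 26.4% and 26.8% of all genes tested. Cox17, a copper chaperone of mitochondria, rose from 1.41 ± 0.660 to 4.30 ± 0.305 FPKM (1.17, adjusted p = 0.000863). Ccs passed with the deposited scaling only (0.49, adjusted p = 0.0417, with TPM 0.142). Atp7a, the copper pump, fell from 7.92 ± 0.566 to 5.61 ± 0.333 FPKM (-0.43, adjusted p = 0.00363). Slc48a1, which exports heme from phagolysosomes, stood at 34.8, 29.7 and 33.5 and at 25.1, 19 and 18.8 FPKM (-0.63, adjusted p = 0.00294). The magnesium carrier Slc41a2 fell from 7.70 ± 0.223 to 5.56 ± 0.470 FPKM (-0.41, adjusted p = 0.00438).

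**Figure D3:**
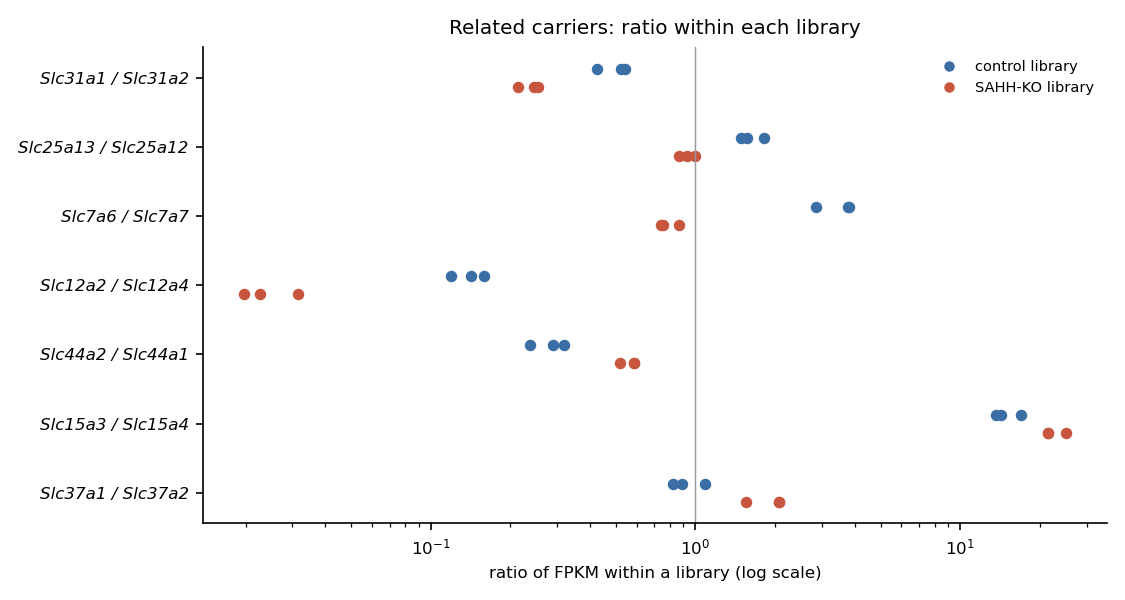
Ratio of FPKM of related carriers within each library, on a log axis (blue control, red SAHH-KO libraries; the grey line marks a ratio of 1). The groups do not overlap in any of the 7 pairs, which were chosen after their values were seen; Slc7a6 over Slc7a7 crosses 1, from 2.85 to 3.79 down to 0.738 to 0.866.

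Nucleotide sugar carriers bring sugar donors for glycans from the cytosol into the Golgi and endoplasmic reticulum. Of 11 members, 7 were lower with the deposited scaling, none was higher and 4 did not pass, beside 27% lower and 25.7% higher among all genes at that level. With TPM or assigned reads 8 were lower, none was higher and 3 did not pass, beside 38.7% or 38.8% lower among all genes. The 7 lower calls held under each scaling, but both rescalings move fold changes downward, so lower calls could hardly fail them. The class sum went from 173 ± 9.15 to 138 ± 3.09 FPKM. Slc35a1, the CMP-sialic acid transporter on which sialylation depends, stood at 8.62, 10.4 and 9.15 FPKM in control and at 5.69, 6.33 and 5.67 in SAHH-KO libraries (log2 fold change -0.59, SE 0.0938, adjusted p = 0.00102). Slc35c2, linked to fucosylation of Notch, went from 18 ± 2.21 to 12.5 ± 0.534 FPKM (-0.49, adjusted p = 0.00402). The sulfate donor (PAPS) transporter Slc35b2 stood at 17.9, 15.6 and 17.1 and at 12.7, 12.1 and 12.4 FPKM (-0.41, SE 0.081, adjusted p = 0.00297). Slc35a4, the most abundant member of the class, stood at 58.2, 45.3 and 49.8 and at 35.7, 40.0 and 38.2 FPKM (-0.41, adjusted p = 0.00997). Slc35b4, a UDP-xylose and UDP-N-acetylglucosamine carrier, fell from 4.88 ± 0.126 to 3.61 ± 0.113 FPKM (-0.35, adjusted p = 0.00625).

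The calls for Slc35a3, which carries UDP-N-acetylglucosamine, and Slc35c1, the GDP-fucose transporter, were less firm. Slc35a3 stood at 6.42, 10.8 and 8.14 FPKM in control and at 5.37, 5.87 and 5.74 in SAHH-KO libraries (log2 fold change -0.48, adjusted p = 0.0296), and Slc35c1 went from 16 ± 2.37 to 12.6 ± 0.567 FPKM (-0.32, adjusted p = 0.0359). Without SAHH-KO replicate 1 their adjusted p-values were 0.0879 and 0.102. The UDP-galactose transporter Slc35a2 was at 8.33 ± 1.23 and 9.95 ± 0.859 FPKM (0.24, adjusted p = 0.115), and Slc35b1, Slc35b3 and Slc35d1 did not pass. Of 10 tested genes that make or activate these donors, 1 was higher and 5 lower, beside 26.4% and 26.8% of all genes tested. Nans, which makes sialic acid phosphate, stood at 22.7, 17.8 and 23.4 and at 12.5, 13.2 and 12.9 FPKM (-0.68, adjusted p = 0.00104). Cmas, which makes CMP-sialic acid in the nucleus, stood at 12.5, 13.9 and 13.8 and at 8.40, 9.45 and 7.57 FPKM (-0.61, adjusted p = 0.00105), and Gne, the first enzyme of the path, was lower too (-0.31, adjusted p = 0.0298). The sialic acid carrier of lysosomes, Slc17a5, was at 5.32 ± 0.50 and 4.63 ± 0.444 FPKM and did not pass.

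**Figure D4:**
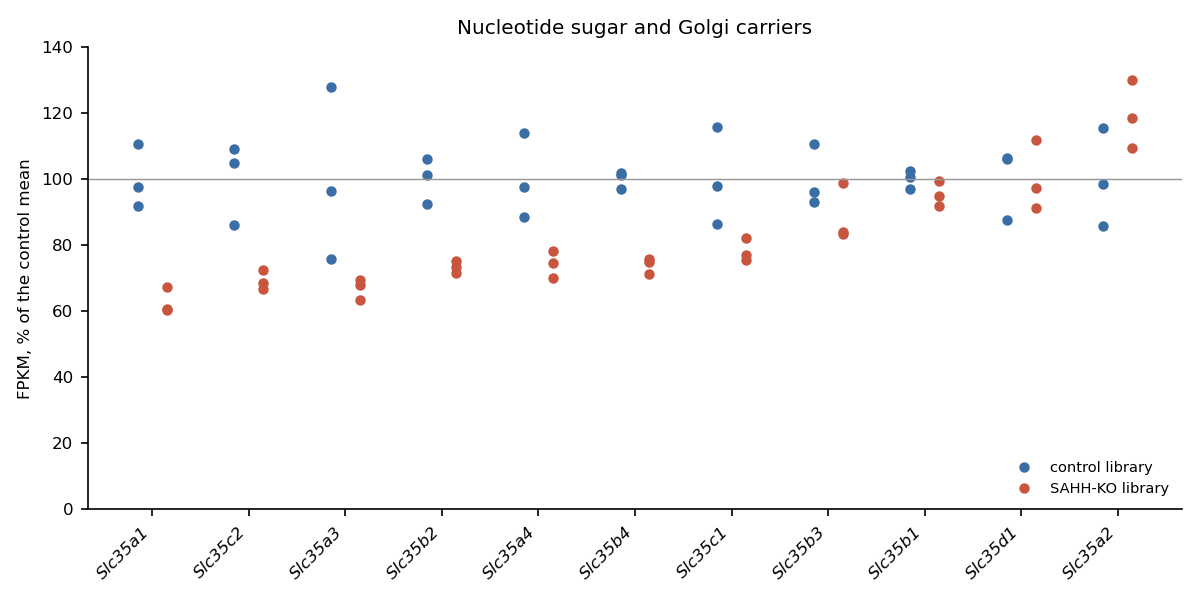
FPKM of the 11 nucleotide sugar and Golgi carriers in each library as a percentage of the control mean of that gene (blue control, red SAHH-KO; the grey line marks 100%). For the 7 leftmost genes all red points lie below all blue ones, as for Slc35a1 at 60.4% to 67.5% against 91.9% to 110.6%; Slc35a2, at the right, is at 109.5% to 130.0%.

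Carriers of organic acids and lipids had few calls. Of 10, 1 was higher and 3 lower, beside 25.7% and 27% of all genes at the members' level, and 6 did not pass. Slc44a2, a choline transporter-like protein, stood at 4.71, 4.08 and 4.29 FPKM in control and at 11.7, 10.1 and 11.0 in SAHH-KO libraries, 2.51-fold higher (log2 fold change 1.15, SE 0.0896, adjusted p = 2.11e-05). Its relative Slc44a1, the main choline transporter-like protein by level, was at 15.6 ± 1.39 and 19.5 ± 2.64 FPKM and did not pass (adjusted p = 0.0504), and the ratio of Slc44a2 to Slc44a1 was 0.237 to 0.317 in control and 0.520 to 0.584 in SAHH-KO libraries. Slc16a6, of the monocarboxylate carrier family, stood at 11.7, 11.2 and 11.2 and at 5.27, 5.88 and 5.48 FPKM, 2.05-fold lower (-0.92, SE 0.0786, adjusted p = 3.45e-05). Part of its exons overlaps Amz2, which was at 4.10 ± 0.591 and 3.41 ± 0.279 FPKM. Slc16a13, of the same family, fell from 10.8 ± 0.848 to 6.27 ± 0.545 FPKM (-0.69, adjusted p = 0.000447). Slc10a3 was lower (-0.32, adjusted p = 0.0388), and without control replicate 3 its adjusted p was 0.12. Slc27a1, a fatty acid transport protein, was the most abundant of the class at 80.4, 50.1 and 57.7 and at 64.7, 55.2 and 64.7 FPKM and did not pass. Slc33a1, which carries acetyl-CoA into the endoplasmic reticulum, was at 9.32 ± 1.81 and 7.43 ± 0.390 FPKM (-0.28, adjusted p = 0.104); with TPM its adjusted p was 0.02.

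Sugar carriers had 3 higher members of 7 and no lower one, beside 25.7% and 27% of all genes at the members' level. With TPM 2 were lower, Slc37a2 and Slc17a5, beside 38.7% of those genes. Slc37a1 stood at 4.08, 4.04 and 3.58 FPKM in control and at 5.98, 7.54 and 6.67 in SAHH-KO libraries, 1.73-fold higher (log2 fold change 0.65, SE 0.101, adjusted p = 0.000867). Slc37a3 rose from 4.39 ± 0.179 to 6.52 ± 0.0369 FPKM (0.48, adjusted p = 0.0011). Slc37a2, known as a macrophage sugar phosphate carrier, was at 4.22 ± 0.437 and 3.57 ± 0.327 and did not pass with the deposited scaling, so that the ratio of Slc37a1 to Slc37a2 was 0.824 to 1.08 in control and 1.55 to 2.08 in SAHH-KO libraries. The glucose-6-phosphate transporter of the endoplasmic reticulum, Slc37a4, was at 3.61 ± 0.478 and 3.86 ± 0.182 FPKM. Slc50a1, a glucose uniporter, was higher with the deposited scaling (0.38, adjusted p = 0.00753) and not with TPM (0.057).

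Vitamin, nucleoside and organic cation carriers numbered 6, of which 5 were tested. Slc5a6, the sodium-coupled importer of biotin and pantothenate, reached FPKM 2 in control libraries only, so it had to differ and was not tested. It stood at 4.80, 3.26 and 4.68 FPKM in control and at 1.24, 1.25 and 1.04 in SAHH-KO libraries. Slc23a2, the ascorbate transporter, was higher with the deposited scaling only (log2 fold change 0.31, adjusted p = 0.0109; with TPM 0.16), and without control replicate 3 its adjusted p was 0.0548. Slc52a2, a riboflavin transporter (-0.31, adjusted p = 0.0287), and Slc22a5, the carnitine transporter (-0.24, adjusted p = 0.0474), were lower. Without SAHH-KO replicate 1 the adjusted p of Slc52a2 was 0.1, and that of Slc22a5 lay between 0.053 and 0.146 in each fit without 1 library. Slc22a5 shares 26.3% of its 50-base words with other genes, chiefly Slc22a21, which was at 0.487 ± 0.151 and 0.446 ± 0.168 FPKM. The purine nucleoside carrier Slc28a2 and the thiamine transporter Slc19a2 did not pass.

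Among the 10 members of other or unknown substrate, 1 was higher and 3 lower, beside 25.7% and 27% of all genes at the members' level. The orphan carriers Slc35e1 and Slc35g1 fell. Slc35e1 stood at 18.7, 18.1 and 17.3 FPKM in control and at 9.98, 11.7 and 11.0 in SAHH-KO libraries (log2 fold change -0.68, SE 0.085, adjusted p = 0.000272), and Slc35g1 went from 4.39 ± 0.235 to 2.69 ± 0.0663 FPKM (-0.55, adjusted p = 0.000811). Slc35f5 was higher with the deposited scaling only (0.30, adjusted p = 0.0308; with TPM 0.18), and without control replicate 3 its adjusted p was 0.12. Slc4a1ap, not a carrier, was lower with all libraries (-0.21, adjusted p = 0.0448), with an adjusted p between 0.061 and 0.177 in the fits without 1 library.

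Members near the level that chose them are given by their third-highest FPKM of 6. Just inside were Slc25a14 at 2.08, Slc25a36 at 2.21, Slc45a4 at 2.26 and Slc22a5 at 2.52. Just outside were Slc43a2 at 1.91, Slc12a5 at 1.78, Slc25a26 at 1.69 and Slc35a5 at 1.67. Slc25a26 carries S-adenosylmethionine into mitochondria in exchange for S-adenosylhomocysteine, the substrate of the enzyme named in the labels. It stood at 1.69, 1.87 and 2.05 FPKM in control and at 0.925, 1.22 and 1.22 in SAHH-KO libraries, lower in each of the latter.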

How the data were processed

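Bulk RNA-seq of 3 control and 3 SAHH-KO libraries was used. Per the submitters' processing notes, the authors used FastQC, Trim Galore, STAR and featureCounts with GRCm38/mm10; versions, strand use and the FPKM method are not given in the sources used here. The deposited table holds FPKM per gene with its length. FPKM times length gave whole reads (within 0.01) for 100% of values, which recovered the assigned reads per library. Intervals and floors from reads cover counting error only.

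Genes that reached FPKM 1 in 3 or more libraries were tested on log2(FPKM + 1) with limma 3.58.1 in R 4.3.3 (eBayes with trend, group as the only term, 2-sided), and p-values were Benjamini-Hochberg adjusted over all 10362 genes. Fold changes on this scale understate the change of low genes; folds given as N-fold are ratios of mean FPKM. The fit was tested on simulated data. With 3 libraries against 3, an exact permutation test of 1 gene cannot go below 0.1, so none was used. In 4 members FPKM 2 was reached in 1 group only, and they have values and no test. Other scalings, filters, pseudocount 0.1, a replicate block and leaving out each library were alternatives. Shared reads were estimated from exon overlap and 50-base words in GENCODE M21. No 2 replicates held identical values.

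Members, substrate classes, partner and marker lists and named genes were chosen with earlier results of these data known. Named were, per class, up to 4 largest rises and 4 largest falls past the threshold with groups that do not overlap, the most abundant member, a fixed set of metabolite carriers, the members next to the level, and partners past the threshold; any other gene named was chosen after its values were seen. Classes follow textbook substrates. The results of a few genes are not reported here.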

Additional observations from a re-analysis of the deposited data

How the results depend on the processing

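The rule named 57 members, of which 56 were tested. Of those, each under 12 alternatives (672 values), 606 kept their direction and side of the threshold, 57 lost the call, 3 gained one and 6 changed sign. The sign changes were all of members that did not pass: Slc15a4 was at 0.029 without control replicate 1, 0.015 without control replicate 3 and 0.036 without SAHH-KO replicate 3 (lowest -0.061), Slc27a1 at 0.19 without control replicate 1 and 0.072 without SAHH-KO replicate 2 (lowest -0.15), and Slc35e4 at 0.0029 without control replicate 1 (lowest -0.26). With TPM or assigned reads, 3 amino acid carriers were higher in place of 5, 0 vitamin carriers in place of 1, and 0 of the other or unknown class in place of 1, while 5 of that class in place of 3 and 2 sugar carriers in place of 0 were lower. Without a filter 0 of the other or unknown class were higher and 0 vitamin carriers lower, and with a filter on the mean 1 vitamin carrier was lower. Leaving out 1 library in turn gave 24 to 32 higher and 29 to 37 lower members. Without control replicate 1, 7 calls were lost (among them Slc22a5, Slc25a51, Slc35c1, Slc35f5, Slc4a1ap, Slc52a2). Without control replicate 2, 8 calls were lost (among them Slc10a3, Slc22a5, Slc25a24, Slc35a3, Slc38a7, Slc39a10, Slc4a1ap). Without control replicate 3, 16 calls were lost (among them Slc10a3, Slc16a10, Slc22a5, Slc23a2, Slc25a24, Slc25a3, Slc25a51, Slc26a2, Slc35a3, Slc35c1, Slc35f5, Slc38a7, Slc39a10, Slc4a1ap, Slc52a2). Without SAHH-KO replicate 1, 14 calls were lost (Slc10a3, Slc16a10, Slc22a5, Slc25a24, Slc25a3, Slc25a39, Slc35a3, Slc35c1, Slc35f5, Slc38a7, Slc4a1ap, Slc52a2, Slc6a6, Slc8b1). Without SAHH-KO replicate 2, 12 calls were lost (among them Slc10a3, Slc16a10, Slc22a5, Slc25a24, Slc25a3, Slc25a51, Slc35a3, Slc35c1, Slc39a10, Slc4a1ap, Slc6a6). Without SAHH-KO replicate 3, 18 calls were lost (among them Slc10a3, Slc16a10, Slc22a5, Slc23a2, Slc25a24, Slc25a3, Slc25a51, Slc26a2, Slc35a3, Slc35c1, Slc35f5, Slc38a7, Slc39a10, Slc4a1ap, Slc52a2, Slc6a6, Slc8b1). By class, higher and lower counts ranged over 3 to 6 and 6 to 7 for amino acids, 5 to 7 and 2 to 3 for ions, 4 to 5 and 5 to 6 for metals, 7 to 8 and 7 to 10 for mitochondrial carriers, 0 to 1 and 5 to 6 for nucleotide sugars, 1 to 2 and 2 to 4 for organic acids, 0 to 1 and 2 to 3 for other or unknown, 3 to 3 and 0 to 0 for sugars and 0 to 1 and 0 to 1 for vitamins, and 9 to 10 and 13 to 18 for the partners. Deviations of same-numbered libraries from their group means had correlations of 0.095, 0.101 and -0.006, and those of other pairs lay between -0.117 and 0.028. With 3 libraries per group, these values cannot tell whether the numbers pair the samples. A replicate block gave 31 higher and 36 lower members, 2 higher of the other or unknown class and 0 lower vitamin carriers. Choosing members by a mean FPKM of at least 2 gave 126 members with 32 higher and 43 lower, and by at least 5 gave 97 with 29 higher and 33 lower. The cause of these differences was not tested. Calls at low FPKM rest on fewer reads and are limited by depth.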
